A study of Mus musculus with 6 samples.

Results

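The Fc receptor genes described here are 7 of the 51361 genes in a count table of sorted regulatory T cell (Treg) libraries. They were taken by gene symbol. They are the activating receptors Fcgr1, Fcgr3 and Fcgr4, the inhibitory receptor Fcgr2b, the signalling chain Fcer1g, the kinase Syk and the neonatal receptor Fcgrt. All 7 had enough counts to be tested, among 16657 genes tested. Messenger RNA was sequenced from cells sorted as CD4+CD25+Foxp3+ from 9-week-old male mice of the C57BL/6N background that all carried the allele Tg(Foxp3-DTR/EGFP)23.2Spar. That transgene places a diphtheria toxin receptor and a green fluorescent protein under Foxp3 control. The sham blood group carried it as well, so no group lacked the transgene. Transient middle cerebral artery occlusion (tMCAO), a stroke model that closes an artery of the brain and reopens it, lasted 60 min. Cells were taken from brain and blood 14 days after it. The 3 groups of 2 libraries were tMCAO brain, tMCAO blood and the blood of sham-operated mice, with 500 to 1000 cells in each library.

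Fc gamma receptors bind the constant part of immunoglobulin G and let myeloid cells take up and respond to antibody-coated targets. The activating receptors of the mouse signal through the common gamma chain encoded by Fcer1g, whose ITAM (immunoreceptor tyrosine-based activation motif) is phosphorylated by Src family kinases and then recruits SYK. Fcgr2b carries an inhibitory ITIM in its own tail and opposes that signal through the lipid phosphatase encoded by Inpp5d. Microglia, macrophages, monocytes and neutrophils express these receptors, while T cells signal through the related chain Cd247 and the SYK relative Zap70.

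Total counts ranged from 14348179 to 24460894 a library. Whether the 2 libraries of a group stem from different animals is not stated in the labels. P-values therefore reflect only how far these libraries differ, and that difference may be technical. The label Treg was checked against its markers before the results. Foxp3, the gene that defines the sorted cells, stood at 0.726 and 19.6 CPM (counts scaled to a common library size) in the brain libraries 1 and 2. It stood at 0.538 and 5.18 CPM in the tMCAO blood libraries 1 and 2, and at 50.1 and 60.7 CPM in the sham libraries. The 17 T cell markers together took 0.0303% and 0.158% of counts in the brain libraries, 0.0666% and 0.433% in blood after tMCAO, and 0.897% and 0.881% after sham surgery. The libraries tMCAO brain 1 and tMCAO blood 1 thus held the least T cell RNA and stood apart from the second library of their group.

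Fcgr2b, Fcgr3, Fcgr4 and Fcer1g lie near one another on chromosome 1 of the mouse build GRCm38. Fcgr2b spans chr1:170958617-170976547 on the minus strand and overlaps the antisense gene Gm38204 in its exons. Fcgr4 follows at chr1:171018920-171029761 on the plus strand, Fcgr3 at chr1:171051174-171064935 and Fcer1g at chr1:171229572-171234365, both on the minus strand. Fcgr1 lies apart at chr3:96282909-96293969 on the minus strand, Fcgrt at chr7:45092990-45103851 on the minus strand and Syk at chr13:52583173-52648792 on the plus strand. Fcgr2b and Fcgr3 share long stretches of coding sequence. The longest run of identical bases between any coding transcripts of those 2 genes is shown. A single read of 75 bases that falls inside it could come from either gene.

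Fcgr2b and Fcgr3, shared coding run: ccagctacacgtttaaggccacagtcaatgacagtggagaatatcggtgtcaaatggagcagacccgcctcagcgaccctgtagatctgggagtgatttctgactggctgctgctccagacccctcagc

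The run is 129 bases long in both genes, 102 of them in exon 3 and 27 in exon 4. In Fcgr2b those parts are chr1:170967980-170968081 and chr1:170966674-170966700, and in Fcgr3 they are chr1:171057691-171057792 and chr1:171054167-171054193. Across all annotated transcripts, 94 stretches of 75 bases occurred in both genes. These were 5.42% of the distinct 75-base stretches of Fcgr3. In Fcgr2b, 5.43% of such stretches occurred in some other gene, Fcgr3 included, and in Fcgr1, Fcgr4, Fcer1g, Fcgrt and Syk none did. How multi-mapped reads were counted is not given in the sources used here, so the counts of Fcgr2b and Fcgr3 carry that uncertainty and those of Fcgr4 do not. Without a stated strand setting, reads of Fcgr2b and Gm38204 cannot be told apart where they overlap.

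The 3 activating receptors also shared a short sequence upstream of their start sites. The 100 bases that end at the RefSeq start site of each, from the promoter table of build GRCm38.p6, are shown with that motif in capitals.

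Fcgr1: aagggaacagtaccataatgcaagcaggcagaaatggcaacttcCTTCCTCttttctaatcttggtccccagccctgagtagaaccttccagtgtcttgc
Fcgr3: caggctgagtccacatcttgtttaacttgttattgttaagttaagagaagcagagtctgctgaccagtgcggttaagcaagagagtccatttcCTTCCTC
Fcgr4: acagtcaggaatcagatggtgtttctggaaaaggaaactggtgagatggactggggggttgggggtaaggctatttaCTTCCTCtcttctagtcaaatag

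The stretches are chr3:96293970-96294069 on the minus strand, chr1:171059404-171059503 on the minus strand and chr1:171018826-171018925 on the plus strand. The capitals mark CTTCCTC, the reverse complement of GAGGAAG, a form of the sites bound by the myeloid factor PU.1. It was searched on both strands and chosen after the sequences were seen, and other forms were not searched. It began 56 bases before the start site of Fcgr1, 7 before that of Fcgr3 and 23 before that of Fcgr4. The other 4 genes did not hold it in the 100 bases before their start sites or in the 300-base window (250 before the start and 50 after). Of 27025 genes in the table, 4.68% held the motif in those 100 bases and 13.5% in the 300-base window. A match is only a match of letters.

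All 7 genes had counts in every library, and with TMM scaling all 7 were lowest in sham blood; scaling to myeloid markers, given further on, turns some of these differences. The library sizes behind CPM were adjusted by TMM, a normalization that assumes most genes do not change. The gene with the fewest counts was Fcgrt, with 113 in sham blood 1, where the 95% counting interval reached 20.2% from the value. Such intervals cover counting error only, since the amplified reads carry no molecular identifiers. In bulk libraries, fewer cells of a type and less RNA per cell cannot be told apart.

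Fcgr1, the receptor with the highest affinity for immunoglobulin G, was measured at 559 and 163 CPM in the brain libraries 1 and 2, 271 and 83.1 CPM in blood after tMCAO, and 17.8 and 26.0 CPM in blood after sham surgery. Both tMCAO groups lay above sham blood and overlapped each other. Fcgr3, the low-affinity activating receptor, was measured at 1823 and 934 CPM in the brain libraries 1 and 2, 1300.2 and 422 CPM in blood after tMCAO, and 72.3 and 111 CPM in blood after sham surgery, in the same arrangement. Fcgr4, an activating receptor of intermediate affinity, followed another order. It was measured at 142 and 72.0 CPM in the brain libraries 1 and 2, 851 and 479 CPM in blood after tMCAO, and 32.7 and 46.3 CPM in blood after sham surgery. The lower of the tMCAO blood libraries was above the higher tMCAO brain library, and both tMCAO brain libraries were above sham blood, so no groups overlapped.

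Fcgr2b, the inhibitory receptor, was measured at 1083 and 445 CPM in the brain libraries 1 and 2, 649 and 237 CPM in blood after tMCAO, and 31.4 and 73.9 CPM in blood after sham surgery. Its tMCAO groups overlapped and both lay above sham blood. Fcer1g, the chain that the activating receptors need to reach the cell surface, was measured at 3739 and 1638 CPM in the brain libraries 1 and 2, 4346 and 2191 CPM in blood after tMCAO, and 539 and 569 CPM in blood after sham surgery. Syk, the kinase bound by the phosphorylated chain, was measured at 119 and 85.4 CPM in the brain libraries 1 and 2, 157 and 91.8 CPM in blood after tMCAO, and 30.2 and 25.2 CPM in blood after sham surgery. For both genes the tMCAO brain and tMCAO blood libraries overlapped. Fcgrt, which carries immunoglobulin G through endosomes and protects it from breakdown, was measured at 215 and 46.9 CPM in the brain libraries 1 and 2, 58.7 and 36.3 CPM in blood after tMCAO, and 7.25 and 12.9 CPM in blood after sham surgery. The 2 tMCAO brain libraries of Fcgrt differed 4.59-fold, the widest gap within a group among the 7 genes.

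**Figure D1:**
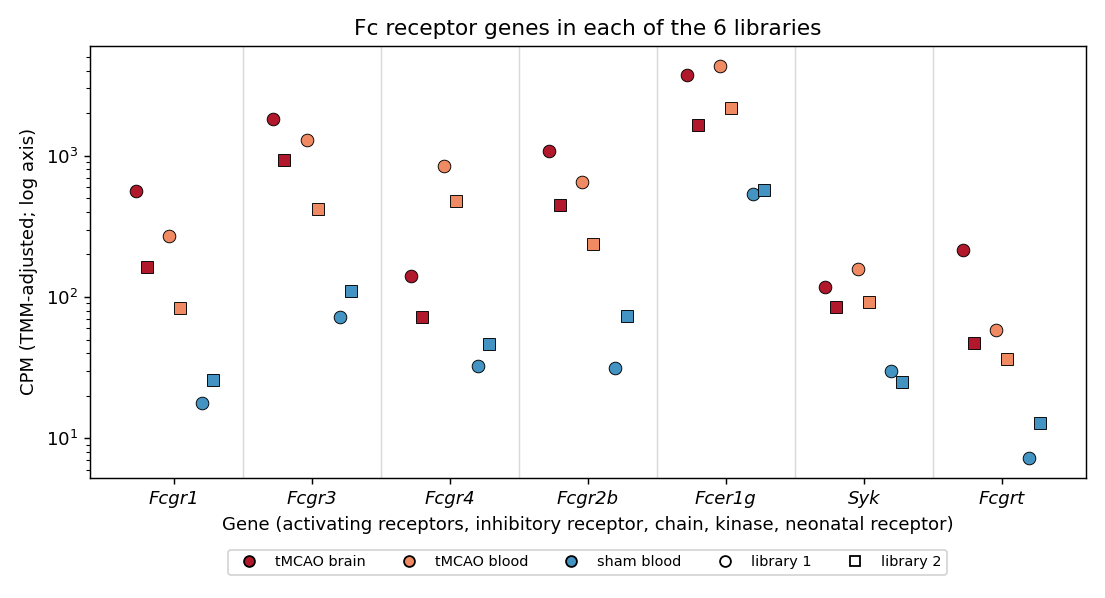
CPM (log axis) of each Fc receptor gene in the 6 libraries, with 1 point a library, colour for the group and shape for the library number. Sham blood lies lowest for all 7 genes, and Fcgr4 alone has both tMCAO blood libraries (851 and 479 CPM) above both tMCAO brain libraries (142 and 72.0 CPM); levels of different genes are not scaled to length here.

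In all 4 tMCAO libraries, library 1 of a group read above library 2 for each of the 7 genes. The same order held for the monocyte and macrophage markers, which summed to 6.15% and 3.49% of counts in the brain libraries 1 and 2 and to 3.63% and 1.58% in tMCAO blood 1 and 2. It was the opposite of the order of the T cell markers. Summed, the 7 genes took 0.639% and 0.339% of counts in the brain libraries, 0.734% and 0.426% in blood after tMCAO, and 0.0749% and 0.0856% after sham surgery.

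Levels per kilobase of exon set the genes beside one another. The length is that of all annotated exons of a gene merged, 5790 bases for Fcgr2b and 9362 for Syk. Which transcripts were present was not measured, so the order of genes within a group depends on this choice of length. In tMCAO brain the group means ran from Fcer1g at 3076 CPM per kilobase through Fcgr3 at 794, Fcgr1 at 139, Fcgr2b at 132, Fcgr4 at 85.1 and Fcgrt at 62.3 to Syk at 10.9 (n = 2 each). In tMCAO blood Fcer1g stood at 3739.9 CPM per kilobase, and Fcgr4 came next at 529.5, beside Fcgr3 at 496. There Fcgr2b, Fcgr1, Fcgrt and Syk had means of 76.6, 68.4, 22.6 and 13.3 CPM per kilobase. In sham blood the means were 634 CPM per kilobase for Fcer1g, 52.8 for Fcgr3, 31.5 for Fcgr4, 9.09 for Fcgr2b, 8.46 for Fcgr1, 4.79 for Fcgrt and 2.96 for Syk. By this measure Fcgr1 and Fcgr2b were neighbours in every group and did not differ beyond their spread, since their libraries overlapped. Neither did Fcgr3 and Fcgr4 in tMCAO blood.

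Brain and blood of operated mice were compared first, by edgeR's quasi-likelihood test over all tested genes. Fcgr4 was lower in tMCAO brain than in tMCAO blood and was the only one of the 7 genes to pass. The mean levels were 107 ± 49.3 CPM in the brain libraries and 665 ± 263 CPM in tMCAO blood (SD, n = 2 each). The log2 change was -2.64 ± 0.49 (SE), a 6.22-fold difference, with an edgeR adjusted p of 0.0417. Over all genes tested, 1.37% were called lower and 3.53% higher in this comparison, and 0 of the 7 were called higher (0 at an unadjusted p under 0.05 as well, and 0 by DESeq2 or limma-voom). DESeq2 called 2088 of 16657 genes higher in it, and limma-voom 997. Without overlap between the groups, 1 of the 7 was lower (Fcgr4) and 0 higher, where 25.9% and 31.4% of all genes were. The other 6 genes had log2 changes of 1.03 ± 0.75 for Fcgr1, 0.79 ± 0.70 for Fcgr2b, 0.68 ± 0.63 for Fcgr3, 1.46 ± 0.72 for Fcgrt, -0.28 ± 0.55 for Fcer1g and -0.29 ± 0.35 for Syk. Their edgeR adjusted p ran from 0.241 to 0.767, and errors this wide do not show that the levels were alike. The median log2 change of the 7 was 0.68, beside 0.06 over all genes tested.

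The call for Fcgr4 rested on all 6 libraries. The sign stayed negative under all 15 alternatives, with log2 changes from -5.21 to -1.32. The edgeR adjusted p was 0.0688 without tMCAO brain 1, 0.116 without tMCAO brain 2, 0.0907 without tMCAO blood 1 and 0.0661 without tMCAO blood 2. It was 0.115 without sham blood 1 and 0.117 without sham blood 2, libraries of neither group compared, which enter through the shared estimate of spread, the scaling and the filter (19329 and 19351 genes were then tested instead of 16657). With only the 2 groups compared in the fit it was 0.0985, and with libraries scaled to T cell markers it was 0.815. The 3 comparisons share libraries, so they are not independent of one another.

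Ratios within a library cancel its depth and its scaling, and they set Fcgr4 beside its relatives. With 2 libraries against 2, the smallest two-sided p of an exact permutation test is 0.333, so the ratios are given as values. The ratio of Fcgr4 to Fcgr3, per kilobase, was 0.107 and 0.106 in the brain libraries, 0.905 and 1.57 in blood after tMCAO, and 0.625 and 0.577 after sham surgery. The tMCAO brain libraries were lowest and nearly equal. Their T cell marker shares were 0.0303% and 0.158% of counts, and their microglia marker shares 0.875% and 0.939%. The part of cell types in this ratio was not tested. Among the 4 Fc gamma receptors, Fcgr4 made up 7.21% and 7.79% of counts per kilobase in the brain libraries, 41.2% and 54.7% in blood after tMCAO, and 32.6% and 29.8% after sham surgery. Fcgr4 was thus a minor receptor in the brain libraries and a leading one in the blood libraries of operated mice.

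The other receptors kept a narrower range. The ratio of Fcgr1 to Fcgr3 per kilobase was 0.206 and 0.117 in the brain libraries, 0.140 and 0.132 in blood after tMCAO, and 0.165 and 0.157 after sham surgery. The ratio of the inhibitory Fcgr2b to Fcgr3 was 0.178 and 0.143, then 0.150 and 0.169, then 0.130 and 0.200 in the same order. In both ratios the groups overlapped, except that Fcgr1 to Fcgr3 was lower in both tMCAO blood libraries than in both sham libraries. The 3 activating receptors summed, set against Fcgr2b, gave 7.37 and 8.56 in the brain libraries, 13.7 and 16.02 in blood after tMCAO, and 13.8 and 8.68 after sham surgery. Per kilobase, the tMCAO brain values were below all blood values, and sham blood spanned most of the range between. In raw counts the groups overlapped, with sham blood 2 at 2.48 between the brain libraries at 2.33 and 2.63.

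The chain was measured against its partners in the same way. Fcer1g to the 4 receptors summed gave 2.73 and 2.55 per kilobase in the brain libraries, 3.03 and 3.60 in blood after tMCAO, and 7.71 and 5.27 after sham surgery. The groups did not overlap, and the chain was most in excess where the receptors were lowest. Fcer1g to Tyrobp, the other ITAM chain of myeloid cells, stayed between 0.461 and 0.793 in all 6 libraries. Its lowest values, 0.584 and 0.461, were in tMCAO brain. Against their T cell counterparts the ratios spread much further. Syk to Zap70 was 8.13 and 0.639 in the brain libraries, 3.75 and 0.391 in blood after tMCAO, and 0.0887 and 0.0761 after sham surgery. Fcer1g to Cd247 was 6177 and 246, then 2017 and 207, then 18.1 and 15.6. Within each tMCAO group, library 1 exceeded library 2 in both ratios, as it did for the 7 genes themselves.

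**Figure D2:**
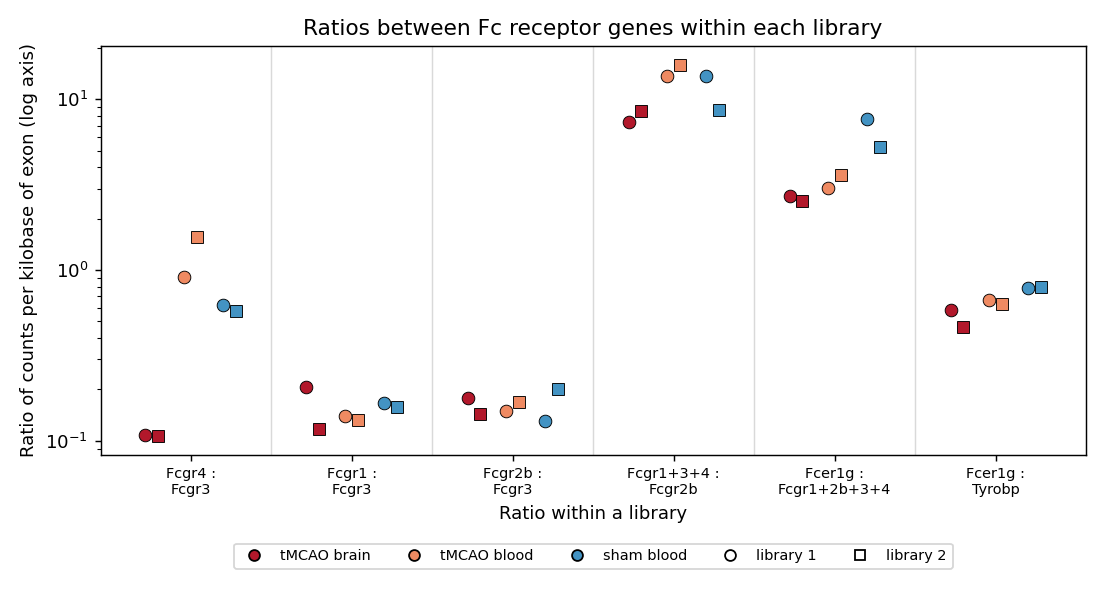
Ratios of counts per kilobase of exon within each library (log axis), with 1 point a library, colour for the group and shape for the library number. Fcgr4 to Fcgr3 is lowest in the 2 tMCAO brain libraries (0.107 and 0.106) and highest in tMCAO blood (0.905 and 1.57), while Fcgr1 to Fcgr3 and Fcgr2b to Fcgr3 stay between 0.117 and 0.206 in all 6.

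Blood of operated mice was next set against blood of sham-operated mice. All 7 genes were higher in both tMCAO blood libraries than in both sham libraries, where 33.6% of all genes were. With libraries scaled to myeloid markers the log2 changes of Fcer1g, Fcgrt and Syk turned negative, and the median over all genes was -2.38. In edgeR's test 3 of the 7 rose, where 4.33% of all genes were called higher and 3.15% lower. Fcgr4 rose by a log2 change of 4.07 ± 0.53, 16.8-fold, from 39.5 ± 9.59 to 665 ± 263 CPM (SD, n = 2 each), with an edgeR adjusted p of 0.0313. Fcgr3 rose by 3.23 ± 0.68, 9.39-fold, with an edgeR adjusted p of 0.0462. Syk rose by 2.17 ± 0.37, 4.49-fold, with an edgeR adjusted p of 0.035. The others had log2 changes of 2.56 ± 0.58 for Fcer1g, 3.07 ± 0.75 for Fcgr2b, 3.02 ± 0.80 for Fcgr1 and 2.24 ± 0.74 for Fcgrt. Their edgeR adjusted p ran from 0.0517 for Fcer1g to 0.1097 for Fcgrt. DESeq2's Wald test called all 7 higher, where it called 2069 of 16657 genes higher and 1735 lower. By limma-voom 4 were called higher, where it called 524 of all genes higher and 622 lower. The median log2 change of the 7 was 3.02, beside 0.11 over all genes tested.

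The 3 calls against sham blood depended on single libraries. None of the 7 genes passed edgeR's adjusted threshold without tMCAO blood 1, sham blood 1 or sham blood 2, although 6, 5 and 7 of them had an unadjusted p under 0.05. For Fcgr4 the edgeR adjusted p was then 0.0844, 0.192 and 0.262. Without tMCAO blood 1, its log2 change was 3.60, and that of Fcgr3 was 2.20. Without tMCAO blood 2 that of Fcgr3 was 3.83. Without those libraries edgeR called 0 genes of the whole table in this comparison, while 3843, 3155 and 2490 had an unadjusted p under 0.05.

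Brain of operated mice was also set against sham blood, a comparison in which tissue and operation differ together and cannot be told apart. All 7 genes were higher in both tMCAO brain libraries than in both sham libraries, where 34.9% of all genes were. With libraries scaled to myeloid markers all 7 log2 changes turned negative, and the median over all genes was -4.91. In edgeR's test 5 of the 7 rose, where 8.01% of all genes were called higher and 2.62% lower. Fcgr3 rose by a log2 change of 3.91 ± 0.70, 15.04-fold, from 91.7 ± 27.3 to 1379 ± 628 CPM (SD, n = 2 each), with an edgeR adjusted p of 0.0257. Fcgr1 rose by 4.04 ± 0.84 and Fcgr2b by 3.86 ± 0.78, with edgeR adjusted p of 0.0358 and 0.0341. Fcgrt rose by 3.70 ± 0.79 and Syk by 1.88 ± 0.36, with edgeR adjusted p of 0.0375 and 0.0300. Fcer1g had a log2 change of 2.28 ± 0.57 and an edgeR adjusted p of 0.0563. Fcgr4 had the smallest change of the 7, 1.43 ± 0.48, with an edgeR adjusted p of 0.104. DESeq2 called all 7 higher here, where it called 2603 of 16657 genes higher and 1404 lower. The median log2 change was 3.70, beside 0.09 over all genes tested.

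None of the 7 passed against sham blood without tMCAO brain 1, sham blood 1 or sham blood 2, although 6, 5 and 6 of them had an unadjusted p under 0.05 in edgeR. For Fcgr3 the edgeR adjusted p was then 0.0630, 0.204 and 0.174. Without tMCAO brain 1 the log2 change fell to 2.21 for Fcgrt, 2.88 for Fcgr1 and 3.07 for Fcgr2b. Without tMCAO brain 2 it was 4.42 for Fcgrt and 4.67 for Fcgr1, and for Fcgr2b it was 3.26 without sham blood 1 and 4.6 without sham blood 2. The call of Fcgrt was also lost without tMCAO blood 1 or tMCAO blood 2, at edgeR adjusted p of 0.0509 and 0.0517. By limma-voom its adjusted p was 0.0612.

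**Figure D3:**
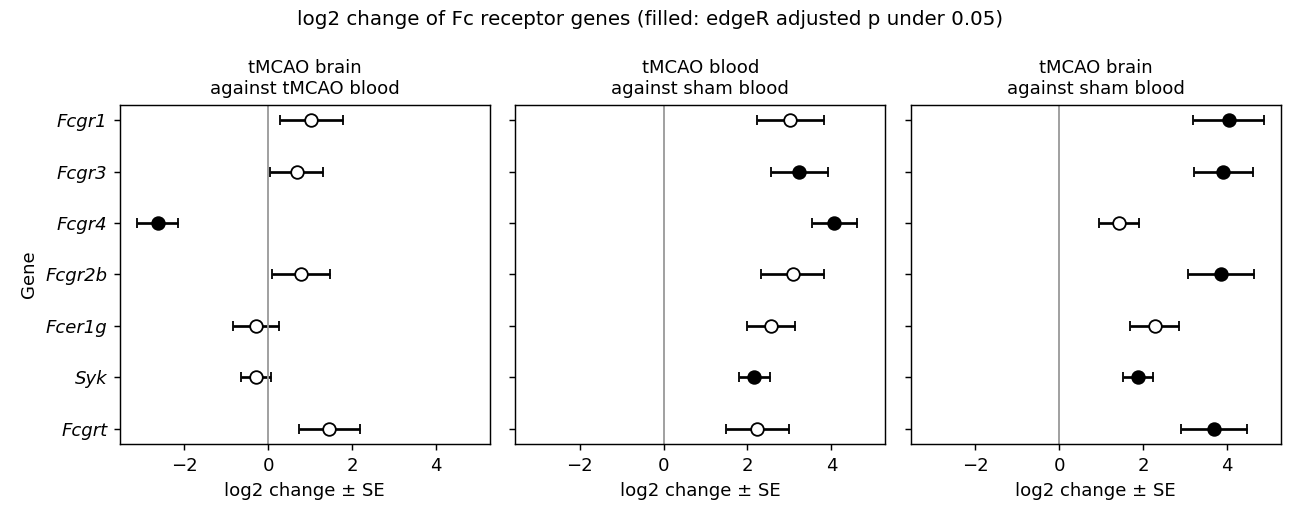
log2 change ± SE of each Fc receptor gene in the 3 comparisons, from edgeR with TMM scaling; filled points have an adjusted p under 0.05. Fcgr4 is the one filled point left of 0 (-2.64, tMCAO brain against tMCAO blood); all 7 genes lie right of 0 in both comparisons with sham blood, where scaling to myeloid markers turns 3 of the 7 negative for tMCAO blood and all 7 for tMCAO brain.

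Markers of other cell types were summed in each library. The 18 monocyte and macrophage markers summed to 3.49% to 6.15% of counts in tMCAO brain, 1.58% to 3.63% in tMCAO blood and 0.676% to 0.792% in sham blood. Against sham blood, edgeR called 13 of 18 higher in tMCAO brain and 9 of 18 higher in tMCAO blood, where 8.01% and 4.33% of all genes were. The 13 markers of microglia stood at 0.875% and 0.939% of counts in the brain libraries and between 0.0202% and 0.0280% in all blood libraries. Their ranges in tMCAO blood and sham blood overlapped. Sall1, a transcription factor that defines microglia, was at 0 counts in all 4 blood libraries and at 25.1 and 34.2 CPM in tMCAO brain. The 11 neutrophil markers took 0.178% and 0.0254% in the brain libraries, 0.0314% and 0.792% in blood after tMCAO, and 0.00235% and 0.00233% after sham surgery, where S100a9 was at 0. Of the tMCAO blood libraries, number 1 had the fewer neutrophil marker counts and the higher level of all 7 genes. Of the tMCAO brain libraries, number 1 had the more neutrophil marker counts and also the higher level of all 7 genes. Natural killer cell markers took 0.00133% to 0.0666% and B cell markers 0.00427% to 0.0377% of counts over the 6 libraries. Dendritic cell markers took 0.0684% and 0.141% in the brain libraries, 0.00281% and 0.00925% in blood after tMCAO, and 0.0537% and 0.0707% after sham surgery. Red cell markers made up 15.1% and 16.4% of the sham libraries and 0.107% and 3.80% of the tMCAO blood libraries. They had 16 counts in tMCAO brain 1 and 0 in tMCAO brain 2. Platelet markers took 0.0495% and 0.00434% in the brain libraries, 0.185% and 0.0751% in blood after tMCAO, and 0.127% and 0.178% after sham surgery. Of 8 platelet markers tested against sham blood, edgeR called 3 lower in tMCAO blood and 7 in tMCAO brain, and 0 higher. Over all genes, 3.15% and 2.62% were called lower. The part of these cell types in the results was not tested.

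**Figure D4:**
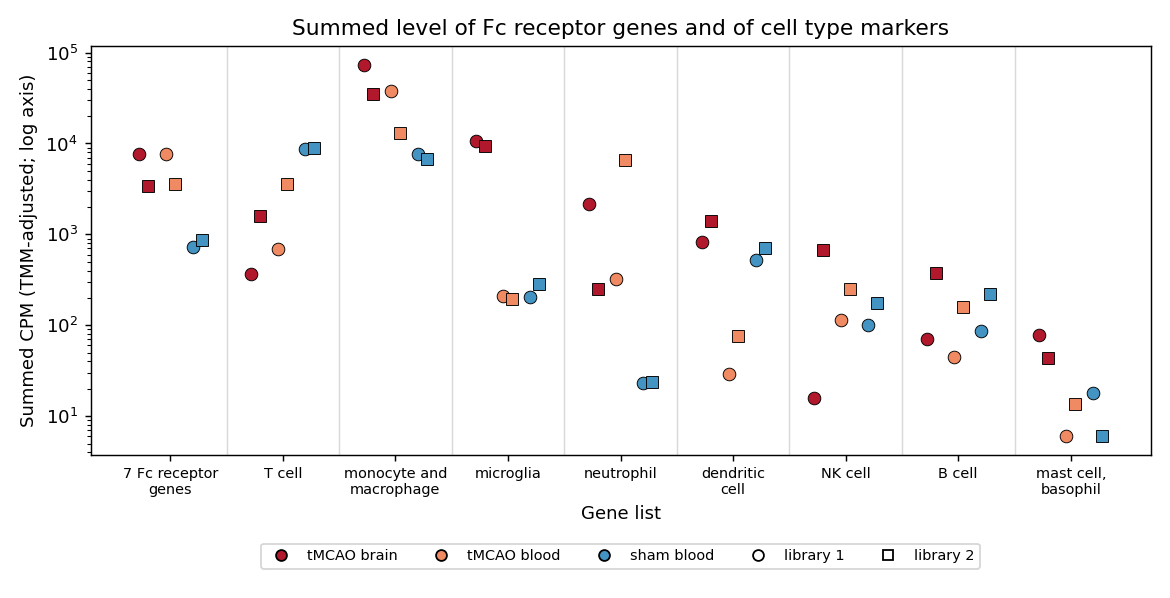
Summed CPM (log axis) of the 7 Fc receptor genes and of 8 lists of cell type markers, with 1 point a library, colour for the group and shape for the library number. In the tMCAO groups library 1 lies above library 2 for the Fc receptor genes and for the monocyte and macrophage markers, and below it for the T cell markers.

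Scaling the libraries to marker genes moved all genes, not only these. With TMM, edgeR called 588 genes higher and 228 lower in tMCAO brain against tMCAO blood, 722 and 524 in tMCAO blood against sham blood, and 1335 and 437 in tMCAO brain against sham blood. The 26 myeloid marker genes used for scaling came from the monocyte and macrophage list and the microglia list. With TMM, those lists had median log2 changes of 3.83 and 7.09 in tMCAO brain against sham blood. With scaling to the 26 genes the same comparisons gave 317 and 10019, 256 and 9377, and 223 and 14116. With scaling to 17 T cell markers they gave 321 and 22, 1082 and 0, and 9813 and 52. The median log2 change of all tested genes moved to -2.42, -2.38 and -4.91 with myeloid scaling and to 1.31, 3.07 and 4.31 with T cell scaling. Relative to that median, Fcgr4 in tMCAO brain against tMCAO blood stood at -2.70 with TMM, -2.79 with myeloid scaling and -2.63 with T cell scaling. Relative to it, Fcgr3 in tMCAO blood against sham blood stood at 3.12, 3.04 and 3.59, and Syk at 2.05, 1.93 and 2.35. Values relative to the median could hardly move, since a new scaling shifts the log2 changes of all genes by nearly the same amount.

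The genes whose profiles over the 6 libraries lay closest to each Fc receptor gene were sought among 6609 tested genes whose mean was at least 20 CPM. The measure was the root mean square distance between centred log2 CPM. Fcgr2b and Fcgr3 were near neighbours, 0.21 apart, and share the stretch printed above, whose part in this was not tested. The nearest gene to Fcgr3 was Pdlim4, at 0.13, and to Fcgr1 it was Tmem106a, at 0.26, ahead of Fcgr3 at 0.26. Among the genes near Syk were Naip5, a sensor of the inflammasome, at 0.13 and Ccdc88a at 0.16. Fcer1g lay closest to the kinase Fes at 0.15 and the transcription factor Zeb2 at 0.21, and Fcgrt to Dse at 0.28 and Atp6v1a, a subunit of the proton pump of endosomes and lysosomes, at 0.31. Fcgr4 lay farther from all genes. Its nearest were 6430548M08Rik at 0.45, Dapk1 at 0.47 and Cebpb, a transcription factor of myeloid cells, at 0.51. Cebpb was measured at 19.5 and 22.2 CPM in the brain libraries 1 and 2, 168 and 79.9 CPM in blood after tMCAO, and 7.25 and 4.64 CPM in blood after sham surgery. The nearest of the other Fc receptor genes to Fcgr4 was Fcer1g, at rank 142.

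The genes that act with these receptors were read from 7 lists. Over all genes tested, edgeR called 3.53% higher and 1.37% lower in tMCAO brain against tMCAO blood. It called 4.33% and 3.15% in tMCAO blood against sham blood, and 8.01% and 2.62% in tMCAO brain against sham blood. The edgeR counts of each list below are to be read beside these shares. Of 8 tested relatives with antibody binding or Fc receptor-like domains, edgeR called 2 higher and 0 lower in tMCAO brain against tMCAO blood and also against sham blood. Fcrls, an Fc receptor-like gene of microglia, was measured at 1831 and 1331 CPM in the brain libraries and at 5.60 CPM or less in every blood library. Its edgeR adjusted p was 0.0215 against tMCAO blood and 0.00935 against sham blood. Fcrl1 stood at 69.8 and 49.6 CPM in the brain libraries and at 7.05 to 18.9 CPM in blood. In tMCAO blood against sham blood edgeR called 0 of the 8 (1 at an unadjusted p under 0.05), DESeq2 called 1 higher and limma-voom 0. Over all 16657 genes DESeq2 called 2069 higher in that comparison and limma-voom 524. The chains of the high-affinity immunoglobulin E receptor, which also uses Fcer1g, were nearly absent. Fcer1a and Ms4a2 were at 0 counts in all libraries except sham blood 1, which held 4 and 34 counts.

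Of 23 kinases, adaptors and exchange factors next to the receptor, edgeR called 2 higher in tMCAO brain against tMCAO blood, 5 higher in tMCAO blood against sham blood and 8 higher in tMCAO brain against sham blood, and 0 lower in each. Blnk, an adaptor that SYK phosphorylates, was measured at 327 and 203 CPM in the brain libraries 1 and 2, 24.4 and 9.57 CPM in blood after tMCAO, and 2.82 and 9.08 CPM in blood after sham surgery. Its edgeR adjusted p was 0.0408 against tMCAO blood and 0.0158 against sham blood. Pik3ap1, which couples receptors to PI3-kinase, rose in tMCAO brain against tMCAO blood by a log2 change of 3.75 ± 0.60, with an edgeR adjusted p of 0.0327. Plcg2, the phospholipase downstream of SYK, rose in tMCAO blood against sham blood by 2.34 ± 0.33, with an edgeR adjusted p of 0.0313. Gab2, a docking adaptor, rose there by 3.09 ± 0.52, with an edgeR adjusted p of 0.0350.

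Among 13 phosphatases, inhibitory adaptors and ubiquitin ligases, edgeR called 0, 3 and 2 higher and 0 lower in the same order of comparisons. For tMCAO brain against tMCAO blood, 4 had an unadjusted p under 0.05 on the lower side, and DESeq2 called 4 lower and limma-voom 1. Over all 16657 genes 1879 had an unadjusted p under 0.05 on the lower side in edgeR. DESeq2 called 1363 lower in that comparison and limma-voom 449. Inpp5d, the phosphatase that acts with Fcgr2b, was measured at 166 and 182 CPM in the brain libraries 1 and 2, 147 and 138 CPM in blood after tMCAO, and 67.7 and 59.9 CPM in blood after sham surgery. It rose in tMCAO brain against sham blood by a log2 change of 1.45 ± 0.25, with an edgeR adjusted p of 0.0241. Sh2b3, an inhibitory adaptor, rose against sham blood in tMCAO blood by 1.26 ± 0.23 and in tMCAO brain by 1.03 ± 0.23, with edgeR adjusted p of 0.0378 and 0.0429. Pag1, an adaptor that recruits an inhibitory kinase, rose in tMCAO blood by 1.59 ± 0.29, with an edgeR adjusted p of 0.0378. For tMCAO brain against tMCAO blood, the genes of the list with the highest mean CPM over all 6 libraries, Ptpn6 and Ptpn22, had edgeR adjusted p of 0.199 and 0.580.

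Of 17 genes of the phagocytic cup and the oxidase, edgeR called 0 higher and 1 lower in tMCAO brain against tMCAO blood, and 3 higher and 1 lower in each comparison with sham blood. Wipf1, which stabilises the actin regulator WASP, stood at 59.1 and 65.6 CPM in the brain libraries 1 and 2, 172 and 240 CPM in blood after tMCAO, and 82.9 and 57.1 CPM in blood after sham surgery. It was lower in tMCAO brain than in tMCAO blood by a log2 change of -1.72 ± 0.32, with an edgeR adjusted p of 0.0417. Ncf1, a cytosolic oxidase subunit, stood at 175 and 179 CPM in the brain libraries 1 and 2, 369 and 117 CPM in blood after tMCAO, and 18.4 and 15.9 CPM in blood after sham surgery. It rose against sham blood in tMCAO blood by 3.82 ± 0.58 and in tMCAO brain by 3.37 ± 0.57, with edgeR adjusted p of 0.0313 and 0.0226. Pak1, a kinase of the actin skeleton, rose in tMCAO brain against sham blood by 2.39 ± 0.43, with an edgeR adjusted p of 0.0258.

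Of 14 other ITAM-type receptors and adaptors, edgeR called 4 higher and 1 lower in tMCAO brain against tMCAO blood, 4 and 0 in tMCAO blood against sham blood, and 6 and 2 in tMCAO brain against sham blood. Trem2, a lipid receptor of microglia and macrophages, was measured at 1109.5 and 802 CPM in the brain libraries 1 and 2, 83.2 and 40.4 CPM in blood after tMCAO, and 4.62 and 9.43 CPM in blood after sham surgery. Clec7a, a receptor for fungal glucans that signals through SYK, was measured at 828 and 813 CPM in the brain libraries 1 and 2, 81.1 and 90.8 CPM in blood after tMCAO, and 32.9 and 38.0 CPM in blood after sham surgery. Against tMCAO blood it was higher in tMCAO brain by a log2 change of 3.25 ± 0.30, with an edgeR adjusted p of 0.0148. Siglech, a microglial lectin that pairs with Tyrobp, was higher there by 6.33 ± 0.77, with an edgeR adjusted p of 0.0215. Tyrobp rose in tMCAO blood against sham blood by 2.82 ± 0.53, with an edgeR adjusted p of 0.0381.

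Of 16 other ITIM-type receptors, edgeR called 2 higher and 1 lower in tMCAO brain against tMCAO blood, 5 and 0 in tMCAO blood against sham blood, and 10 and 0 in tMCAO brain against sham blood. Sirpa, which binds CD47 and restrains phagocytosis, was measured at 527 and 431 CPM in the brain libraries 1 and 2, 304 and 192 CPM in blood after tMCAO, and 33.4 and 51.3 CPM in blood after sham surgery. It rose against sham blood by a log2 change of 2.55 ± 0.39 in tMCAO blood and 3.50 ± 0.41 in tMCAO brain, with edgeR adjusted p of 0.0313 and 0.0115. Cd33, a sialic acid receptor, rose there by 5.11 ± 0.72 and 6.07 ± 0.76, with edgeR adjusted p of 0.0313 and 0.0126. Ceacam1, an adhesion receptor, was ordered as Fcgr4 was between the tMCAO groups, with 17.1 and 9.56 CPM in the brain libraries and 354 and 115 CPM in tMCAO blood, but its sham blood libraries, at 51.2 and 58.6 CPM, lay above tMCAO brain. Its log2 change in tMCAO brain against tMCAO blood was -4.14 ± 0.64, with an edgeR adjusted p of 0.0297. Cd72, a receptor of B cells and microglia, changed the other way there, by 4.37 ± 0.44, with an edgeR adjusted p of 0.0167.

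The calls of the genes named from these lists also depended on single libraries. Against sham blood, all 9 calls in tMCAO blood and all 12 in tMCAO brain were lost without sham blood 1 and without sham blood 2, with edgeR adjusted p from 0.0979 to 0.332, and edgeR then called 0 genes of the whole table. Without those libraries, 3160 and 3005 genes of tMCAO brain against sham blood had an unadjusted p under 0.05. All 9 calls in tMCAO blood were also lost without tMCAO blood 1, at edgeR adjusted p from 0.0711 to 0.112. Those of Pag1 and Sh2b3 were lost without tMCAO blood 2 as well, at 0.0598 and 0.0505, and that of Sh2b3 without tMCAO brain 1 or tMCAO brain 2, at 0.0555 and 0.0525. Set against sham blood in tMCAO brain, Fcrl1, Inpp5d, Sh2b3, Ncf1 and Pak1 were lost without tMCAO brain 1, at edgeR adjusted p from 0.0550 to 0.143. All of these except Ncf1 were lost without tMCAO brain 2, at 0.0610 to 0.109. Between tMCAO brain and tMCAO blood, all 9 calls were lost without either sham library, at edgeR adjusted p from 0.0550 to 0.117. There Fcrl1, Pik3ap1, Blnk and Wipf1 were lost without each of the other 4 libraries too, Ceacam1 without tMCAO brain 1 or 2 and Siglech without tMCAO blood 1 or 2, at 0.0522 to 0.132. Of the log2 changes given above, that of Ceacam1 became -3.12 without tMCAO blood 1 and -4.74 without tMCAO blood 2, and that of Siglech 7.26 without tMCAO blood 2. In tMCAO blood against sham blood, that of Ncf1 became 2.76 without tMCAO blood 1 and 4.43 without tMCAO blood 2. Cd33 changed there by 6.12 without sham blood 1 and 4.52 without sham blood 2, and in tMCAO brain by 5.37 without tMCAO brain 1, 7.01 without sham blood 1 and 5.47 without sham blood 2. With libraries scaled to myeloid markers, the changes against sham blood of Plcg2, Pag1 and Sh2b3 in tMCAO blood, and of Fcrl1, Gab2, Inpp5d, Sh2b3, Ncf1, Pak1, Clec7a and Sirpa in tMCAO brain, turned negative.

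The 8 T cell counterparts of the chain and of SYK gave 0 calls by edgeR in each comparison. At an unadjusted p under 0.05 there were 0, 1 and 5, all on the lower side. Over all 16657 genes, 1879, 2198 and 1759 were on that side. The median log2 changes of the 8 were -0.64, -2.14 and -3.12, beside 0.06, 0.11 and 0.09 over all genes tested. DESeq2 called 0, 2 and 5 lower in the same order and limma-voom 0, 0 and 1. Over all 16657 genes DESeq2 called 1363, 1735 and 1404 lower and limma-voom 449, 622 and 604. Lck, the kinase that starts T cell receptor signalling, was measured at 43.1 and 237 CPM in the brain libraries 1 and 2, 59.6 and 326 CPM in blood after tMCAO, and 1147 and 1342 CPM in blood after sham surgery. Cd3d, a chain of the T cell receptor complex, was measured at 34.3 and 139 CPM, then 122 and 524 CPM, then 957 and 933 CPM. Both genes were lowest in library 1 of each tMCAO group, where the 7 Fc receptor genes were highest. Their log2 changes against sham blood were -2.69 ± 1.04 and -1.55 ± 0.86 in tMCAO blood, with edgeR adjusted p of 0.148 and 0.275. In tMCAO brain they were -3.15 ± 1.06 and -3.45 ± 0.92, with edgeR adjusted p of 0.106 and 0.0640. Scaling to T cell markers turned Cd3d positive in both and Lck positive in tMCAO brain.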

How the data were processed

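The authors deposited whole-number counts per gene, which the submitters' processing notes tie to HTSeq 0.11.2, STAR without a version and the build GRCm38. Libraries were made with SMART-Seq and Nextera XT and read as paired ends of 75 bases, per the labels' protocols. The annotation release, the use of strand and the counting of multi-mapped reads are not given in the sources used here. Titles set the groups, and every sample column was used.

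Genes passing filterByExpr (minimum count 10) were scaled by TMM and tested by quasi-likelihood with edgeR 4.0.16 (R 4.3.3). The fit held all 6 libraries and had 3 residual degrees of freedom. P-values were adjusted by Benjamini-Hochberg over 16657 genes within a comparison, with a threshold of 0.05. The SE is the log2 change divided by the square root of F. Exon lengths (all annotated exons of a gene merged) and coordinates came from GENCODE M21, and promoters from RefSeq. DESeq2 1.42.0 and limma 3.58.1 (voom) were alternatives. The scripts were tested on simulated data.

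The members, lists and comparisons were chosen with earlier results of these data known. Genes named are the 7 members and, per list and comparison, the first 2 called by adjusted p, or the 2 with the highest mean CPM over all 6 libraries where none was called. The rule allowed up to 4 called, and the lower number was set after values were seen. A gene that the rule also names is not reported here. The 3 nearest profiles were sought per gene, and some are given. The ratios of Fcgr4, Fcgr1 and Fcgr2b to Fcgr3 and of Fcer1g to Tyrobp were chosen after seeing the data.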

Additional observations from a re-analysis of the deposited data

How the results depend on the processing

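Of 915 single-gene changes recomputed under 15 alternatives, 631 kept direction and side of the threshold, 177 lost a call, 63 gained one and 44 changed sign. The cause was not tested.

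Between tMCAO brain and tMCAO blood, 1 of the 7 genes was called lower. With no filter on low counts 2 were called (Fcgr4 lower and Fcgrt higher), 0 with only the 2 groups compared, 6 with myeloid scaling (all lower) and 0 with T cell scaling, and 0 without any 1 library (range 0 to 0). In tMCAO blood against sham blood, 3 were called, 7 with no filter, 5 with the stricter filter (5 CPM in 2 libraries), 7 by DESeq2, 7 with only the 2 groups, 1 with myeloid scaling, 1 with T cell scaling, and 0 to 5 with 1 library left out. Against sham blood, 5 were called higher in tMCAO brain, 7 higher with T cell scaling and 0 to 6 with 1 library left out. With myeloid scaling 3 were called there, all lower (Fcgr4, Fcer1g and Syk).

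Over all genes, the 816 calls in tMCAO brain against tMCAO blood became 3598 with no filter, 1237 with the stricter filter, 3451 by DESeq2, 1446 by limma-voom, 26 with only the 2 groups, 10336 with myeloid scaling, 343 with T cell scaling and 31 to 313 with 1 library left out. The 1246 calls in tMCAO blood against sham blood became 3611 with no filter, 3804 by DESeq2, 9633 with myeloid scaling and 0 to 1240 with 1 library left out. The 1772 in tMCAO brain against sham blood became 4458 with no filter, 4007 by DESeq2, 2752 with only the 2 groups, 14339 with myeloid scaling, 9865 with T cell scaling and 0 to 2080 with 1 library left out. Where 1 library was left out, the lone library of its group was assumed to vary like the others.

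These changed sign. For tMCAO brain against tMCAO blood, myeloid scaling gave -1.58 for Fcgr1, -1.77 for Fcgr2b, -1.82 for Fcgr3, -1.28 for Fcgrt, -0.16 for Fcrl1, -1.82 for Ptpn6 and -1.67 for Ptpn22. T cell scaling gave 1.05 for Fcer1g, 0.90 for Syk and 0.72 for Lck. Without tMCAO brain 1 the values were -0.13 for Fcgr1, -0.0019 for Fcgr2b, -0.027 for Fcgrt and 0.29 for Lck. Without tMCAO brain 2 they were 0.20 for Fcer1g and -0.92 for Ptpn22, without tMCAO blood 1 0.29 for Fcer1g and 0.15 for Syk, and without tMCAO blood 2 1.22 for Lck. The other ends of their ranges with 1 library left out were 2.12 for Fcgr1, 1.68 for Fcgr2b, -1.01 for Fcer1g, 2.18 for Fcgrt, -0.63 for Syk, 1.38 for Ptpn22 and -2.15 for Lck. In tMCAO blood against sham blood, myeloid scaling gave -0.037 for Fcer1g, -0.22 for Fcgrt, -0.45 for Syk, -0.17 for Plcg2, -0.95 for Pag1 and -1.27 for Sh2b3, and T cell scaling 1.79 for Trim21 and 0.70 for Cd3d. For tMCAO brain against sham blood, myeloid scaling gave -1.16 for Fcgr1, -1.18 for Fcgr2b, -1.16 for Fcgr3, -3.66 for Fcgr4, -2.91 for Fcer1g, -1.50 for Fcgrt, -3.24 for Syk, -3.05 for Fcrl1, -1.54 for Gab2, -3.57 for Inpp5d, -3.99 for Sh2b3, -1.67 for Ncf1, -2.47 for Pak1, -0.46 for Clec7a and -1.47 for Sirpa, and T cell scaling 0.16 for Lck and 0.031 for Cd3d.

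Libraries of 2 groups with the same number deviated from their group means with a correlation of 0.304 between tMCAO brain and tMCAO blood, -0.070 between tMCAO blood and sham blood and -0.028 between tMCAO brain and sham blood, and the labels tie the numbers to no shared animal or batch. The block was therefore kept as an alternative, and whether the 2 tMCAO groups are paired is not known. With the replicate block, 1, 4 and 6 of the 7 genes and 803, 1318 and 1977 of all genes were called in the 3 comparisons. The block lost the calls of Wipf1 between tMCAO brain and tMCAO blood (edgeR adjusted p 0.0529) and of Sh2b3 in tMCAO brain against sham blood (0.0600). It added Fcer1g and Lck in tMCAO blood against sham blood (0.0446 and 0.0443) and Fcer1g, Lck and Cd3d in tMCAO brain against sham blood (0.0475, 0.0252 and 0.0205), and changed no other call of a named gene.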
